A study of Mus musculus with 15 samples.

Results

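The genes described here are 33 genes of sterol and fatty acid synthesis in cultured mouse macrophages. They are the rows whose gene symbol equals a name on a list of pathway genes; the rule applies no threshold to measured values. All 33 were found among the 34245 genes of the count table of macrophage differentiation, and 32 by symbol among the 25965 genes of the count table of the IL4 experiment. The list holds 8 genes of the mevalonate steps, 11 genes of the steps from squalene to cholesterol, 5 regulators and carriers and 9 genes of fatty acid synthesis and desaturation. In the IL4 table the sterol methyl oxidase Msmo1 carries its older symbol Sc4mol under the same gene identifier, and its values there are given apart.

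The cells came from the bone marrow of C57BL/6 male mice aged 8 to 10 weeks and were grown with CSF1, the growth factor of the macrophage lineage. Precursors were the non-adherent cells after 2 days with 0.6 ng/ml CSF1 in medium with 15% fetal calf serum. Immature macrophages were grown on to day 6 with 12 ng/ml CSF1 and 10% serum. Mature macrophages were grown for 10 days, the last of them with 120 ng/ml CSF1 and 10% serum. Unstimulated and IL4 cells were mature macrophages kept for a further 48 h in fresh medium with 120 ng/ml CSF1, without or with 20 ng/ml IL4, a cytokine that drives macrophages to an alternative activation state. Each group had 3 libraries, numbered by mouse in the labels. The labels name no genetic change in any group. The CSF1 dose and the time in culture changed together between the differentiation groups, so their parts cannot be told apart. Between precursors and immature macrophages the serum changed with them.

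Cholesterol is built from acetyl units through mevalonate and the isoprenoid pyrophosphates to squalene, which is closed to a ring and trimmed to cholesterol. Fatty acids are built from the same acetyl units, elongated, and given double bonds by desaturases. The transcription factors SREBP-1 and SREBP-2, the products of Srebf1 and Srebf2, switch on both branches when membrane sterol is low, because SCAP then carries them to the Golgi for cleavage. INSIG1 holds SCAP back when sterol is plentiful. In macrophages this circuit works beside the uptake of lipoprotein and the export of cholesterol.

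Promoters of 4 of the genes are shown to compare windows with and without CCAAT matches. SREBPs bind sterol regulatory elements and act together with factors at CCAAT and GC boxes. Windows of 250 bases before the start site were taken from RefSeq (GRCm38.p6) and matched by symbol for 26 of the 33 genes. The motifs searched, on both strands, were the CCAAT box, the GC box in the form GGGCGG, and a form of the sterol regulatory element, TCACNCCAC. A CCAAT box on the other strand reads ATTGG. Matches to the CCAAT box and to TCACNCCAC are in capitals, and overlapping matches on both strands were each counted. Sequences run 5′ to 3′ on the strand of the gene.
Hmgcs1, chr13:119690101-119690350, strand +: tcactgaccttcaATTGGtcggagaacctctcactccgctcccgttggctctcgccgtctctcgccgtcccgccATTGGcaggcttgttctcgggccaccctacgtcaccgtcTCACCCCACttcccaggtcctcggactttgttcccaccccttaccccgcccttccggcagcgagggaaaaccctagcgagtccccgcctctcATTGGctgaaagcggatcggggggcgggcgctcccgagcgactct
Mvk, chr5:114444019-114444268, strand +: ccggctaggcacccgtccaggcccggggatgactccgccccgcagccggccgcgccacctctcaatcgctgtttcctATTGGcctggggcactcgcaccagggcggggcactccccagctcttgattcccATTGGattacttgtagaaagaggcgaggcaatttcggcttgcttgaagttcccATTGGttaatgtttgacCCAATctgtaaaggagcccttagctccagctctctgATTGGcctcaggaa
Fasn, chr11:120824548-120824797, strand -: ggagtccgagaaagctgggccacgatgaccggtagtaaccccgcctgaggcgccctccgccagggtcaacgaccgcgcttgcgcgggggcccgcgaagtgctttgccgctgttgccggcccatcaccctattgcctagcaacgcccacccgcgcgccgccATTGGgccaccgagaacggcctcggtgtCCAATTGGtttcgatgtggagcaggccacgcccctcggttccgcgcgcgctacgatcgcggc
Fads2, chr19:10101504-10101753, strand -: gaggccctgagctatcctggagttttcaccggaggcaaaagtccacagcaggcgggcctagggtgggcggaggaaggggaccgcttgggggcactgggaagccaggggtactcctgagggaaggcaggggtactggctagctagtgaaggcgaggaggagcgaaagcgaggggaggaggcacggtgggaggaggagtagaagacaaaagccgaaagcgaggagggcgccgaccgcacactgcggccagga
The Hmgcs1 window held 3 CCAAT matches and 1 TCACNCCAC match, the Mvk window held 5 CCAAT matches, the Fasn window 3 and the Fads2 window none. A CCAAT match was present for 20 of the 26 genes (76.9%), against 40.7% of the 9704 genes tested in differentiation that had a window and 37.5% of all 27025 genes with one. Among the enzymes of sterol synthesis 15 of 16 had a match, among the fatty acid genes 2 of 6. Scd1, Scd2 and Fads1 had no window. A gene with several start sites was counted if any window matched, and Dhcr7 and Pmvk did not match in all of theirs. The bases just after the start sites used for Hmgcs1, Nsdhl and Sc5d were not found in their annotated transcripts, so these windows are less sure. GGGCGG was found for 21 of the 26 genes (80.8%), against 62.8% of the genes tested. TCACNCCAC was found for Hmgcs1 alone, 3.85% of the 26 genes, against 1.24% of the genes tested. A match describes letters, not a bound site, base composition was not matched, and these shares were not tested.

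Read totals were between 7897769 and 22167294 for the 9 differentiation libraries and between 2408531 and 4214266 for the 6 libraries of the IL4 experiment. Levels are CPM, read counts relative to the library total, with totals scaled by TMM within each table, and the 2 tables were normalized apart. Macrophage markers (8 genes) summed to 7160 to 9710 CPM in precursors, 26600 to 52100 CPM in immature and 43200 to 66900 CPM in mature macrophages. Lyz2 carried most of this sum, with means of 6803, 21012 and 43780 CPM. Between immature and mature macrophages none of the 8 markers was called, with a median log2 fold change of -0.12. Markers of other cells were present in precursors: 8 neutrophil granule genes summed to 12100 to 18400 CPM, 4 progenitor genes to 308 to 387 CPM and 6 B cell genes to 268 to 385 CPM. The granule genes summed to 139 to 197 CPM in immature and at most 1.17 CPM in mature macrophages. Of the 6 adipocyte markers, Adipoq, Plin1, Cidec and Lep were at 0 reads in precursors, and all 6 were at 0 in the other 4 groups. In bulk samples a change in the share of a cell type and a change of RNA per cell cannot be told apart, and the part of the marker shifts in the results below was not tested.

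**Figure D1:**
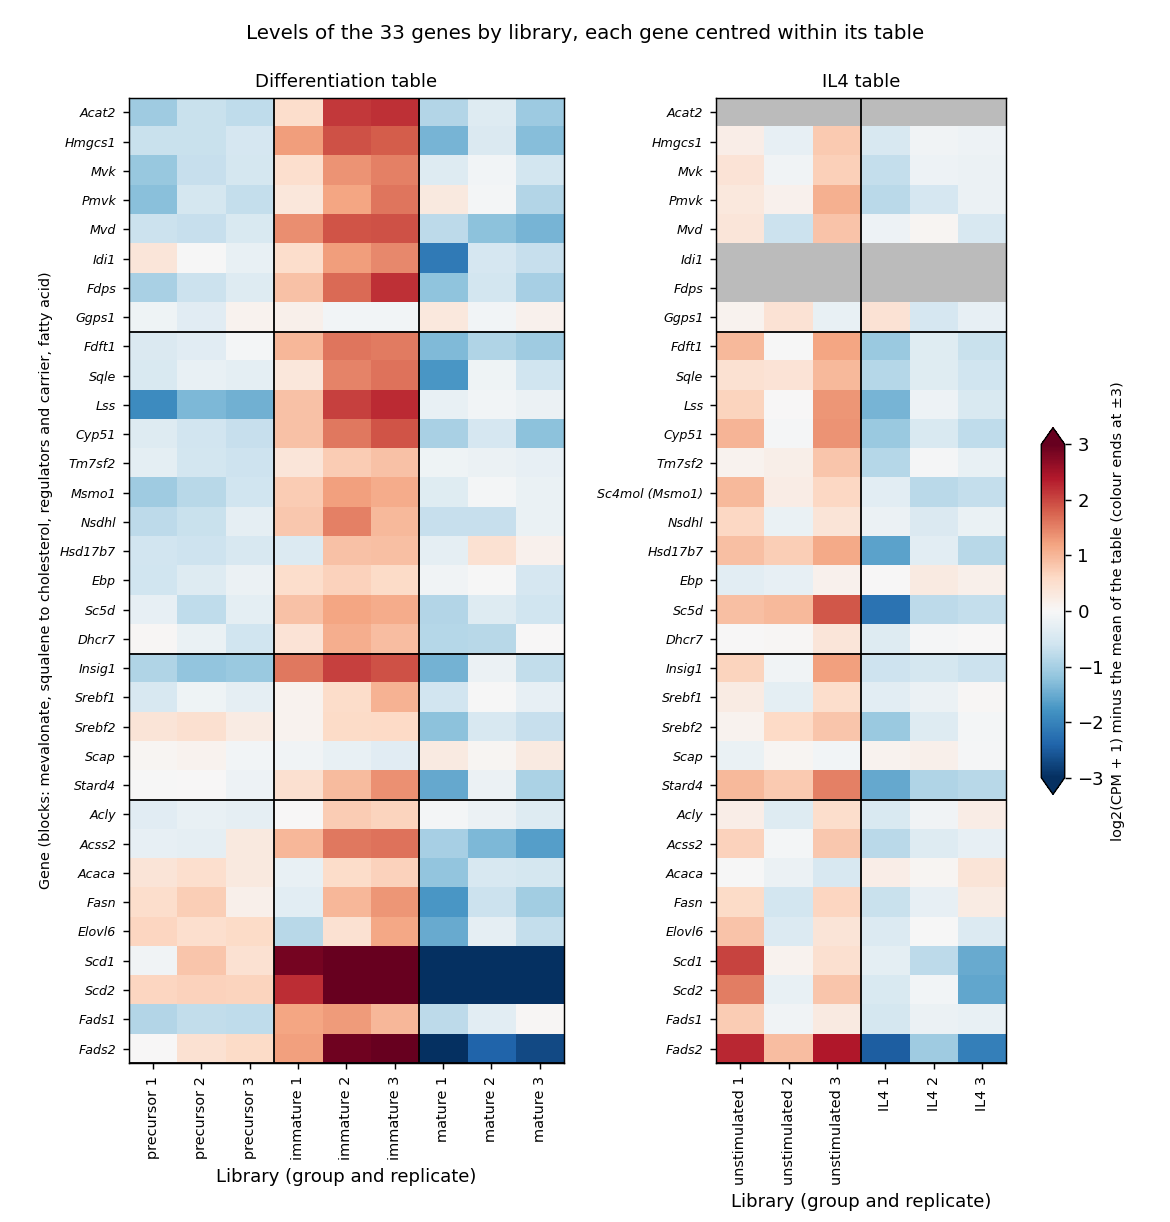
Levels of the 33 genes (rows, in blocks by role) in each library (columns), as log2(CPM + 1) minus the gene's mean within its table. Red is above and blue below that mean, and grey rows had 0 reads in all 6 libraries. Immature macrophages are the red block of the left panel, and Scd1, Scd2 and Fads2 run past the ends of the colour scale.

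Immature macrophages were compared with precursors to see how the genes changed as cells differentiated in CSF1. Of the 33 genes 27 rose and none fell, while 49.2% of the 13359 genes tested were called, 22.5% as higher and 26.6% as lower. A call is an adjusted p under 0.05 over all genes tested (edgeR quasi-likelihood test, Benjamini-Hochberg). The libraries of the groups did not overlap for 27 higher and 1 lower of the 33 genes, against 65% of all genes tested, 29.4% higher and 35.6% lower. The median log2 fold change of the 33 genes was 1.59, against -0.07 over all genes tested. The 8 proliferation markers summed to 2390 to 2540 CPM in precursors and 240 to 1390 CPM in immature macrophages, and 2 of them fell (Mki67 log2 fold change -2.07 ± 0.49). Their part in the result was not tested. By role, 7 of 8 mevalonate genes, 11 of 11 genes from squalene to cholesterol, 3 of 5 regulators and carriers and 6 of 9 fatty acid genes rose. Among the mevalonate genes, Idi1 was called at an edgeR adjusted p of 0.0482. That call was lost in 5 of the 6 fits that left out 1 library (adjusted p between 0.065 and 0.138). It was also lost with the mouse number as a block (adjusted p = 0.075).

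In the mevalonate steps, Mvd, the decarboxylase that makes isopentenyl pyrophosphate, stood at 21.3, 20.7 and 24.6 CPM in the precursor libraries and at 90.6, 128 and 129 CPM in the immature ones. The groups did not overlap, and the log2 fold change was 2.39 ± 0.23 (SE, n = 3 per group, edgeR adjusted p = 1.8e-05). Hmgcs1, the synthase that makes HMG-CoA, went from 45.6, 45.6 and 51.5 to 177, 277 and 259 CPM, a log2 fold change of 2.32 ± 0.28. Fdps makes farnesyl pyrophosphate, the branch point between sterols and protein prenylation. Its values were 50.6, 64.0 and 76.9 CPM in precursors and 185, 332 and 467 CPM in immature cells, and it rose by 2.36 ± 0.33 on the log2 scale. A predicted gene on the same strand covers 26.7% of the exon bases of Fdps, so reads could have been split or shared between them. Ggps1 makes geranylgeranyl pyrophosphate, which serves prenylation and not sterols. It was not called, with 23.2, 19.8 and 27.5 CPM in precursors and 28.4, 23.7 and 23.9 CPM in immature macrophages. Its log2 fold change was 0.11 ± 0.20.

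From squalene to cholesterol, Lss, the cyclase that closes squalene epoxide to lanosterol, had the largest log2 fold change of the 33 genes, 3.49 ± 0.34 (edgeR adjusted p = 2.1e-05). Its values were 8.49, 12.6 and 11.8 CPM in precursors and 62.9, 143 and 164 CPM in immature macrophages, so that each immature library lay above all precursor libraries. Msmo1, which removes methyl groups from lanosterol products, went from 49.5, 58.0 and 69.1 to 179, 247 and 227 CPM, a log2 fold change of 1.89 ± 0.19. Fdft1, squalene synthase, went from 16.3, 17.6 and 21.4 to 45.6, 70.9 and 67.9 CPM and rose by 1.74 ± 0.22. Exons of Fdft1 overlap those of Ctsb on the other strand over 18.3% of its exon bases, and it is not stated whether counting used strand. The log2 fold changes of the 11 genes of these steps ranged from 1.01 (Ebp) to 3.49 (Lss). The call of Dhcr7 was lost without precursor 3 or immature 2 (edgeR adjusted p between 0.0504 and 0.0534). That of Hsd17b7 was lost without immature 2 (adjusted p = 0.061).

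Among the regulators, Insig1 rose by 2.96 ± 0.30 on the log2 scale, from 36.2, 29.5 and 30.9 CPM to 206, 286 and 261 CPM. Srebf1 rose by 0.90 ± 0.24 (edgeR adjusted p = 0.011), from 66.8, 85.6 and 76.6 to 100.4, 136 and 192 CPM. Srebf2 was not called: its 143, 153 and 130 CPM in precursors overlapped the 118, 164 and 164 CPM of immature macrophages, with a log2 fold change of 0.07 ± 0.22. Scap was not called either (log2 fold change -0.26 ± 0.15, adjusted p = 0.18), although its immature values of 48.5, 44.9 and 41.2 CPM all lay below the precursor values of 54.5, 56.8 and 50.01 CPM. Stard4, a carrier that moves cholesterol between membranes, went from 32.9, 33.03 and 29.9 to 46.2, 65.2 and 87.0 CPM, a log2 fold change of 1.05 ± 0.33 (adjusted p = 0.023). Its call was lost in 5 of the 6 fits that left out 1 library, without precursor 1, 2 or 3 or immature 2 or 3 (adjusted p between 0.0526 and 0.0689).

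In the fatty acid branch, the genes that rose were Acly, Acss2 and the 4 desaturases. Fads1, the delta-5 desaturase of polyunsaturated fatty acids, went from 46.2, 51.2 and 50.2 to 196, 207 and 171 CPM, a log2 fold change of 1.96 ± 0.21 (edgeR adjusted p = 4.3e-05). Scd1, a stearoyl-CoA desaturase, went from 9.42, 18.9 and 14.3 to 80.2, 112 and 93.4 CPM, a log2 fold change of 2.74 ± 0.28. Scd2, its close relative, stood at 56.8, 58.8 and 57.6 CPM in precursors and at 171, 619 and 811 CPM in immature macrophages. The Scd2 groups did not overlap, the immature libraries differed widely among themselves, and the log2 fold change was 3.21 ± 0.60 (adjusted p = 0.0014). Acss2, which makes acetyl-CoA from acetate, rose by 1.53 ± 0.28, from 12.6, 12.3 and 18.7 to 30.7, 46.6 and 48.4 CPM. The enzymes that build the chain were not called. Acaca, acetyl-CoA carboxylase, had a log2 fold change of 0.00 ± 0.26, Fasn, fatty acid synthase, one of 0.34 ± 0.39, and Elovl6, an elongase, one of -0.11 ± 0.45. Fasn stood at 191, 223 and 147 CPM in precursors and at 107, 265 and 336 CPM in immature macrophages, so that the groups overlapped.

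Immature library 1 was the lowest of its group for many of these genes, and also for cell division markers. The 8 proliferation markers summed to 240 CPM in it, and to 1030 and 1390 CPM in the other immature libraries. The fatty acid genes summed to 984 CPM in it, against 1970 and 2180 CPM, and the mevalonate genes to 583 CPM, against 976 and 1127 CPM. The same library was the highest of its group for the macrophage markers, which summed to 52100 CPM in it and to 33600 and 26600 CPM in the others, and for 7 genes of the LXR list, with 1280 CPM against 1140 and 815 CPM. Without this library 27 genes were again called as higher than in precursors. Its part in the spread of Scd2 was not tested.

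**Figure D2:**
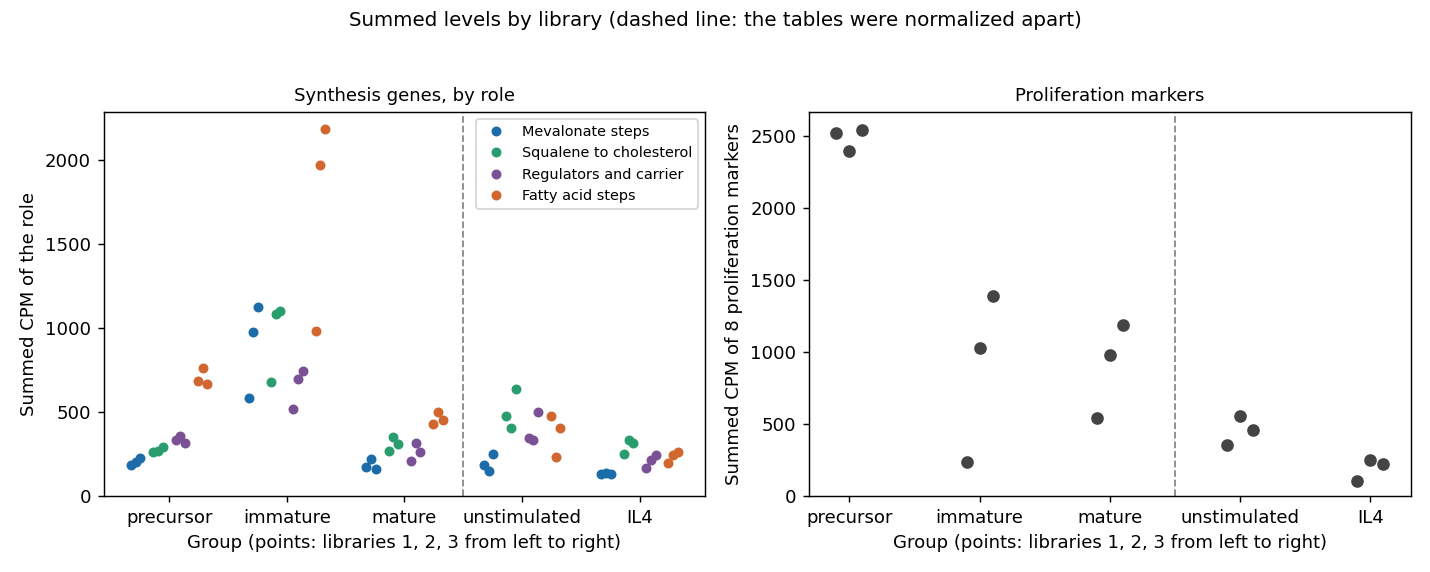
Left, summed CPM of the genes of each role in each library, and right, summed CPM of 8 proliferation markers. Points are libraries 1, 2 and 3 from left to right in each group, and the dashed line parts the tables, which were normalized apart. In the IL4 table the sums hold the rows found by symbol, so Msmo1 is not in them, and Acat2, Idi1 and Fdps add nothing because they are listed at 0 reads. Immature library 1 lies lowest of its group in both panels.

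Mature macrophages were compared with immature ones to follow the genes through the last days at high CSF1. Of the 33 genes 29 fell and none rose, against 14.9% of all genes tested that were called, 7.52% as higher and 7.38% as lower. The groups did not overlap for 1 higher and 29 lower of the 33 genes, against 32.2% of all genes tested, 16.8% higher and 15.4% lower. The median log2 fold change of the 33 genes was -1.72, and that of all genes tested was 0. By role, 7 of 8 mevalonate genes, 10 of 11 genes from squalene to cholesterol, 4 of 5 regulators and carriers and 8 of 9 fatty acid genes fell. Among the mevalonate genes, Pmvk lost its call in 4 of the 6 fits that left out 1 library (edgeR adjusted p between 0.0794 and 0.116). It also lost the call with the mouse number as a block (adjusted p = 0.0825). This comparison and the one before share the immature libraries, so their values stand side by side and are not independent of each other. Without immature library 1, 30 genes were called, all lower.

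Mvd fell to 19.4, 13.9 and 12.2 CPM in mature macrophages, a log2 fold change of -2.93 ± 0.23 (edgeR adjusted p = 4.3e-05). Hmgcs1 stood at 27.1, 53.6 and 29.5 CPM and fell by 2.70 ± 0.28 on the log2 scale. Fdps stood at 43.4, 68.3 and 49.9 CPM, a log2 fold change of -2.61 ± 0.33. In each of these genes all mature libraries lay below all immature ones. Ggps1, again not called, stood at 32.0, 23.9 and 27.6 CPM in mature macrophages (log2 fold change 0.13 ± 0.20).

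Fdft1 fell to 8.42, 11.6 and 10.2 CPM, a log2 fold change of -2.61 ± 0.23. Cyp51, the lanosterol demethylase, stood at 109, 178 and 218 CPM in immature and at 29.4, 41.3 and 24.3 CPM in mature macrophages, a log2 fold change of -2.41 ± 0.28. Sc5d, a late desaturase of the sterol ring, went from 54.7, 68.6 and 64.5 to 15.5, 22.5 and 19.1 CPM, a log2 fold change of -1.72 ± 0.22. Across these 3 genes the groups did not overlap. Hsd17b7, a late reductase, was the gene of this role that was not called, with 10.2, 26.2 and 26.7 CPM in immature and 11.3, 19.2 and 15.2 CPM in mature macrophages. The calls of Tm7sf2 and Ebp were lost without immature 2 (edgeR adjusted p = 0.0584 and 0.0794). That of Dhcr7 was lost without immature 2 or mature 2 (adjusted p between 0.0518 and 0.0654).

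Insig1 fell to 24.9, 60.4 and 40.6 CPM, a log2 fold change of -2.58 ± 0.29. Srebf2 fell to 45.6, 78.5 and 67.2 CPM, a log2 fold change of -1.22 ± 0.22 (edgeR adjusted p = 0.0049), with all mature libraries below the immature ones. Stard4 fell to 10.8, 29.3 and 16.5 CPM, a log2 fold change of -1.82 ± 0.34. Srebf1 fell to 62.3, 92.8 and 78.1 CPM (log2 fold change -0.88 ± 0.24, adjusted p = 0.035), and its call was lost without immature 2 or 3 or mature 1 or 3 (adjusted p between 0.056 and 0.101). Scap, not called, stood at 63.5, 54.6 and 63.3 CPM (log2 fold change 0.43 ± 0.16, adjusted p = 0.088).

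The desaturases split in how far they fell. Scd1 had 0 reads in all 3 mature libraries, against 80.2, 112 and 93.4 CPM in immature ones, and was at least 1061-fold lower (bound from 3 reads over the mature group; edgeR adjusted p = 1.8e-05). Scd2 had 0.081, 1.17 and 2.07 CPM in mature libraries, from 1, 10 and 27 reads, a log2 fold change of -8.89 ± 0.82. Fads2, the delta-6 desaturase, went from 20.3, 67.2 and 76.0 CPM to 0, 0.702 and 0.383 CPM, a log2 fold change of -7.32 ± 0.74. Fads1 fell to 49.0, 68.3 and 87.0 CPM, a log2 fold change of -1.49 ± 0.21, and was detected in each mature library. These genes lie in pairs on chromosome 19 (GRCm38): Scd2 at chr19:44293676-44306864 on the plus strand with Scd1 at chr19:44394451-44407709 on the minus strand, and Fads2 at chr19:10064164-10101503 on the minus strand with Fads1 at chr19:10182888-10196870 on the plus strand. The gaps are 87586 bases and 81384 bases. As shares of summed reads, Scd1 made up 14.2% to 24.4% of Scd1 and Scd2 in precursors and 10.3% to 32.0% in immature macrophages. Fads2 made up 9.35% to 30.8% of Fads1 and Fads2 in immature libraries and at most 1.02% in mature ones. Reads of Scd1 and Scd2 can be confused with those of Scd3, which shares 5.84% and 4.83% of their 31-base words.

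**Figure D3:**
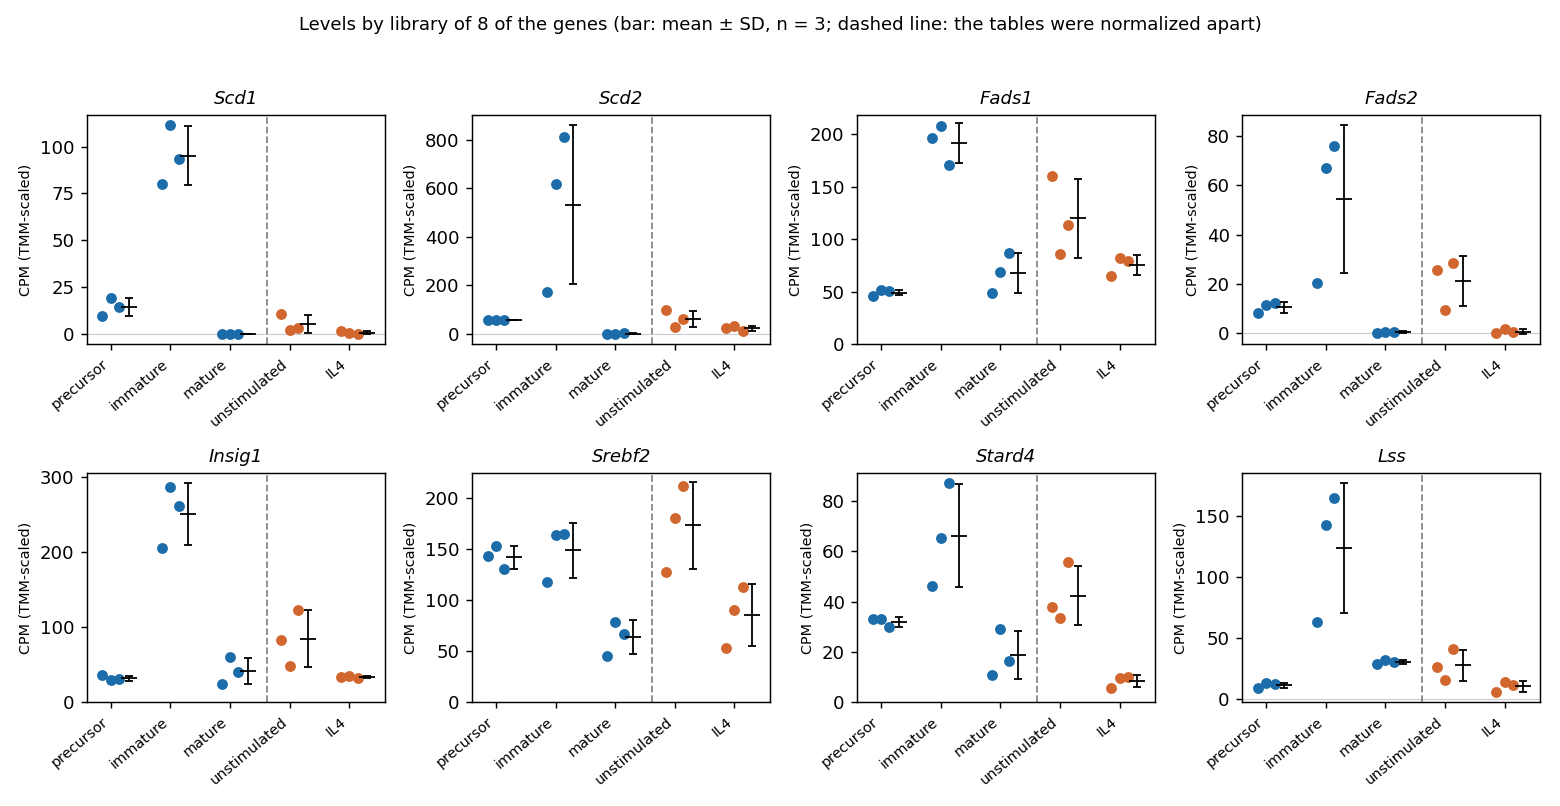
CPM of 8 of the genes in each library (points, replicates 1 to 3 from left to right), with the mean and SD (n = 3), by group. The dashed line parts the tables, which were normalized apart. Scd1, Scd2 and Fads2 are at or near 0 in mature macrophages, while Fads1 stays between 49.0 and 87.0 CPM.

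Among the enzymes that build the chain, Fasn fell to 38.7, 84.8 and 64.0 CPM (log2 fold change -1.92 ± 0.40) and Acaca to 31.2, 51.7 and 49.7 CPM (log2 fold change -1.11 ± 0.26). The Acaca call was lost without immature 2 (edgeR adjusted p = 0.0722). About 31.7% of the 31-base words of Acaca are shared with a predicted gene, so its reads could be split. Acss2 fell to 7.04, 5.27 and 4.06 CPM, a log2 fold change of -2.94 ± 0.30. Elovl6 was not called, with 8.83, 22.7 and 37.7 CPM in immature and 5.10, 13.3 and 9.49 CPM in mature macrophages.

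Mature macrophages were compared with precursors to see where the genes stood at the end relative to the start. Here 12 of the 33 genes were called, 2 as higher and 10 as lower, against 54.3% of all genes tested, 25.8% as higher and 28.5% as lower. The groups did not overlap for 4 higher and 12 lower genes, against 64.1% of all genes tested, 29.7% higher and 34.4% lower. The share of the 33 genes that was called is thus below the background of this comparison. The sterol and fatty acid branches had different counts: of 19 sterol enzymes 2 were higher and 2 lower, and of 9 fatty acid genes none was higher and 7 were lower. The median log2 fold change was 0.05 for the sterol enzymes, -1.42 for the fatty acid genes and -0.05 for all genes tested. The difference between the branches was not tested.

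Lss was higher in mature macrophages, with 28.7, 32.1 and 30.1 CPM against 8.49, 12.6 and 11.8 CPM, a log2 fold change of 1.46 ± 0.32 (edgeR adjusted p = 0.0028). Msmo1 was higher by 0.63 ± 0.19 on the log2 scale, with 81.4, 101 and 91.4 CPM, but its call was lost without precursor 1 or 2 (adjusted p between 0.0506 and 0.0694). Fdft1 was lower, with a log2 fold change of -0.88 ± 0.23. Idi1, the isomerase of isopentenyl pyrophosphate, stood at 17.6, 13.4 and 11.5 CPM in precursors and at 2.35, 9.24 and 8.04 CPM in mature macrophages (log2 fold change -1.12 ± 0.43, adjusted p = 0.048). Its call was lost without precursor 1, 2 or 3 or mature 1 (adjusted p between 0.0598 and 0.145). For the other 15 sterol enzymes the test did not reach the threshold, with log2 fold changes such as -0.38 ± 0.27 for Hmgcs1, -0.33 ± 0.27 for Cyp51 and 0.05 ± 0.25 for Nsdhl, a dehydrogenase of the late steps.

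Of the regulators, Srebf2 was lower (log2 fold change -1.16 ± 0.22, edgeR adjusted p = 0.0013), and all its mature libraries lay below all its precursor libraries. Insig1 (0.38 ± 0.28), Srebf1 (0.02 ± 0.24), Scap (0.17 ± 0.15) and Stard4 (-0.77 ± 0.34) were not called on the log2 scale. In the fatty acid branch, Scd1 was at least 170.7-fold lower, and Scd2 and Fads2 had log2 fold changes of -5.69 ± 0.74 and -4.96 ± 0.73. The other fatty acid genes called were Acss2, Acaca, Fasn and Elovl6, with log2 fold changes between -1.58 and -1.11. The Elovl6 call was lost in 4 of the 6 fits that left out 1 library, without precursor 1 or 3 or mature 1 or 3 (adjusted p between 0.0509 and 0.081). Fads1 (0.47 ± 0.21) and Acly, the citrate lyase that supplies acetyl-CoA (0.09 ± 0.21), were not called.

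**Figure D4:**
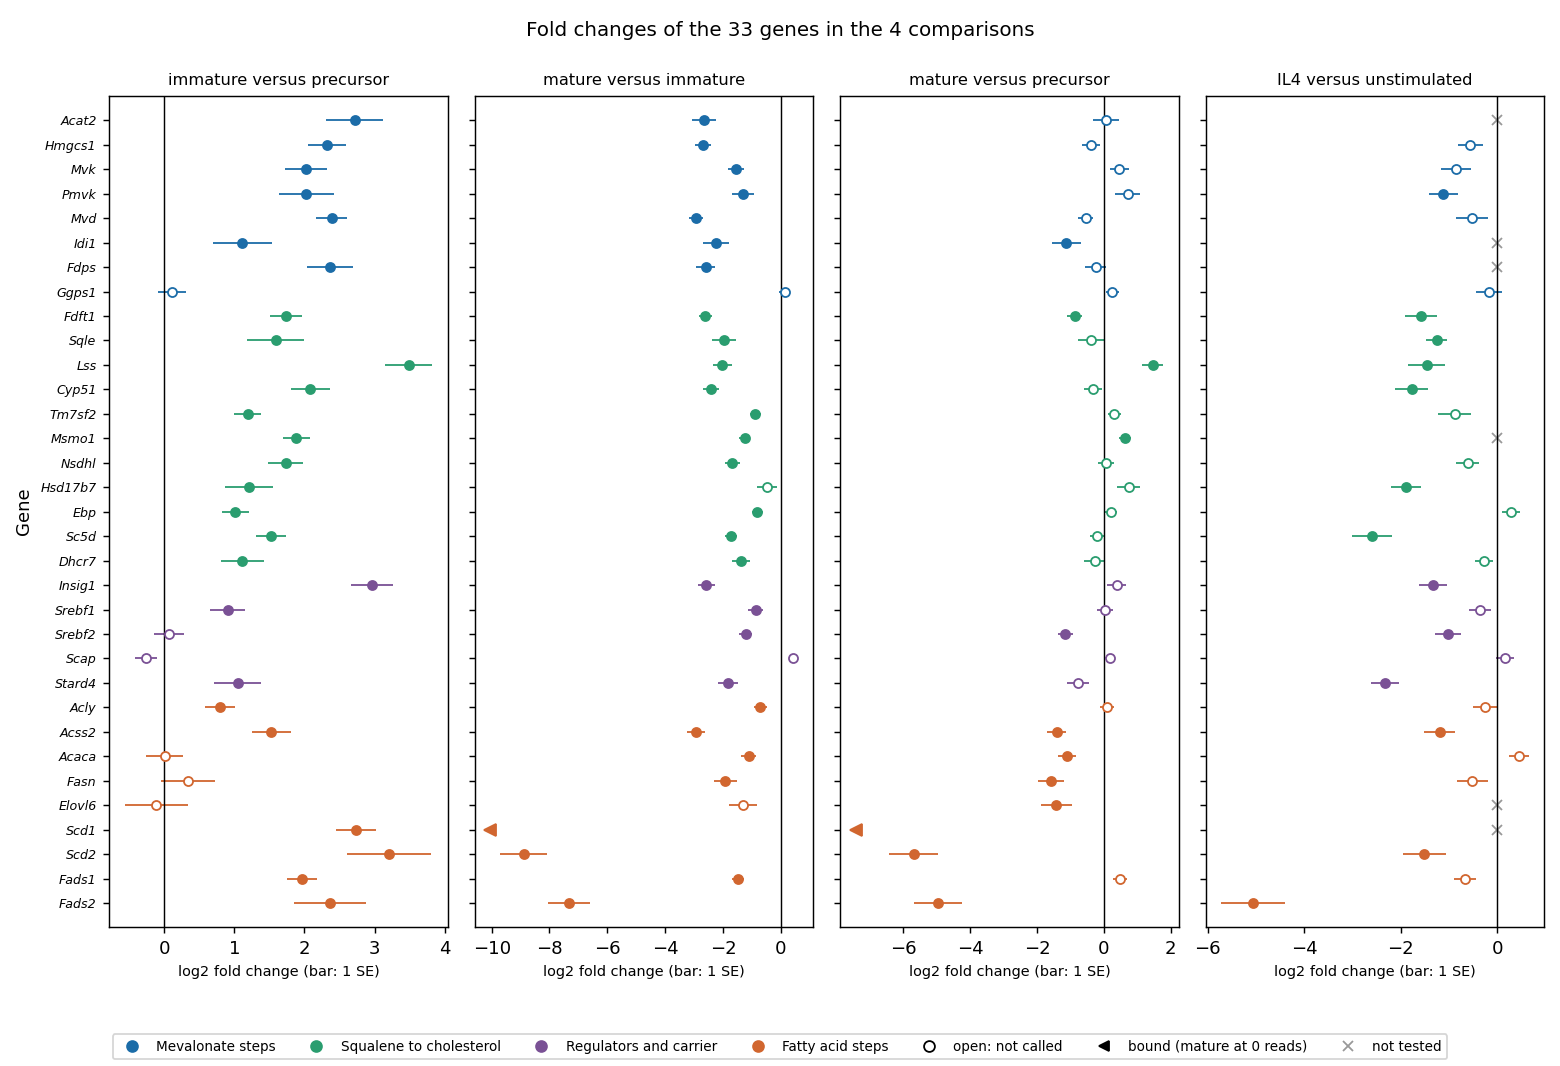
Log2 fold changes of the 33 genes (rows) in the 4 comparisons, with 1 SE, coloured by role. Filled points were called at an adjusted p under 0.05, open points were not, left-pointing triangles are bounds for Scd1 where mature libraries had 0 reads, and crosses were not tested. Each panel has its own axis range, and the first 3 comparisons share libraries.

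Levels per kilobase of exon let genes be set beside each other within a group. The divisor is all exon bases annotated for a gene, whichever transcripts the cells make, so ranks depend on the annotation. In precursors Acly had the highest level, 48.0 ± 1.97 CPM per kb (SD, n = 3), and Lss the lowest, 1.02 ± 0.203 CPM per kb. The place of Lss rests on its 10.787 kb of exons. In plain CPM its precursor mean of 10.98 lay above that of Hsd17b7, 9.08. In immature macrophages the highest means were Scd2 with 97.7 ± 60.1, Acly with 83.4 ± 21.96, Insig1 with 81.1 ± 13.3 and Fdps with 78.0 ± 33.5 CPM per kb, and these neighbours did not differ beyond their spread. In mature macrophages Acly led with 51.0 ± 5.81 CPM per kb, and Scd2, Fads2 and Scd1 had the lowest levels of the 33 genes. Acly was called as higher in immature than in precursor cells (log2 fold change 0.80 ± 0.21) and as lower in mature than in immature cells (-0.71 ± 0.21). The second of these calls was lost in 5 of the 6 fits that left out 1 library, without immature 2 or 3 or mature 1, 2 or 3 (adjusted p between 0.0651 and 0.199), and the first without immature 2 (adjusted p = 0.0525).

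Mature macrophages kept for 48 h with IL4 were compared with unstimulated ones to see which genes the cytokine changed. Of the 32 genes with a row, 27 could be tested. Acat2, Idi1 and Fdps are listed at 0 reads in all 6 libraries of this table. Fdps had 43.4 to 68.3 CPM in mature macrophages of the other table, and whether these zeros come from the counting or its annotation is not known, so they are not read as absent expression. Other genes share 43.7% of the 31-base words of Acat2 (with Acat3), 27.1% of those of Idi1 and 27.9% of those of Fdps. Reads of these 3 genes could thus be split in either table. Acaca and Fdft1, with 33.5% and 31.9% of their words shared, had reads in each library of this table. The part of shared words in the zeros was not tested. Elovl6 and Scd1 were removed by the filter on low counts. Of the 27 genes tested 13 fell and none rose, against 20.8% of the 8936 genes tested in this table, 10.5% as higher and 10.3% as lower. The groups did not overlap for 1 higher and 15 lower of the 27 genes, against 35.9% of all genes tested, 18.4% higher and 17.4% lower. The median log2 fold change of the 27 genes was -0.88, and that of all genes tested was 0.01. By role, 1 of 5 tested mevalonate genes, 6 of 10 genes from squalene to cholesterol, 3 of 5 regulators and carriers and 3 of 7 fatty acid genes fell. With Msmo1 under its older symbol Sc4mol the count was 14. Without unstimulated library 3 the count was 8, and Pmvk, Lss, Srebf2, Acss2 and Scd2 were no longer called (adjusted p between 0.0624 and 0.0833).

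The titles give unstimulated and IL4 libraries the same mouse numbers, while the deposited column names give each library a different number. Whether equal mouse numbers mean the same animal is thus not known. In deviations from the group mean, same-numbered libraries correlated between 0.168 and 0.596, and differently numbered ones between -0.494 and 0.257. IL4 libraries 1 and 3 correlated most with the unstimulated library of their own number (0.596 and 0.413). IL4 library 2 correlated more with unstimulated 3 (0.257) than with unstimulated 2 (0.168). A fit with the mouse number as a block called 18 genes, all lower. The 5 genes it added were Hmgcs1 (log2 fold change -0.52, adjusted p = 0.0469), Mvk (-0.86, 0.0163), Tm7sf2 (-0.89, 0.0102), Nsdhl (-0.59, 0.0211) and Fads1 (-0.65, 0.0184). Without the block their adjusted p were between 0.061 and 0.16.

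The 3 largest falls among the sterol enzymes were those of Sc5d, Hsd17b7 and Cyp51, which act after squalene. Sc5d stood at 33.3, 35.03 and 66.1 CPM without and at 2.95, 9.60 and 10.2 CPM with IL4, a log2 fold change of -2.60 ± 0.41 (edgeR adjusted p = 0.0011). Hsd17b7 went from 30.5, 27.2 and 36.0 to 4.55, 12.6 and 8.56 CPM, a log2 fold change of -1.89 ± 0.31. Sqle, squalene epoxidase and a rate-limiting step, went from 85.6, 82.4 and 123 to 33.7, 48.0 and 40.5 CPM, a log2 fold change of -1.26 ± 0.22. In these 3 genes each IL4 library lay below each unstimulated one. Cyp51, Fdft1 and Lss were also called, with log2 fold changes of -1.77 ± 0.35, -1.58 ± 0.32 and -1.46 ± 0.39. Sc4mol, the row of Msmo1, stood at 74.4, 43.7 and 57.5 CPM without and at 29.7, 20.9 and 22.4 CPM with IL4 (log2 fold change -1.27 ± 0.24, adjusted p = 0.0032). Ebp, a sterol isomerase, was not called, with 56.8, 58.9 and 77.9 CPM without and 71.0, 84.7 and 79.0 CPM with IL4, and Dhcr7, the last reductase of the pathway, had a log2 fold change of -0.28 ± 0.18.

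Of the mevalonate genes, Pmvk, the kinase that acts on phosphomevalonate, was called. It went from 20.4, 17.7 and 35.02 to 8.84, 11.3 and 14.2 CPM, a log2 fold change of -1.12 ± 0.30 (edgeR adjusted p = 0.021), and lost its call without unstimulated 3, IL4 1 or IL4 2 (adjusted p between 0.0523 and 0.0833). Mvd (-0.52 ± 0.33) and Ggps1 (-0.17 ± 0.27) were not called.

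Stard4 had the lowest adjusted p of the 27 genes tested in this comparison, 0.00018. It stood at 38.0, 33.4 and 55.7 CPM without and at 5.89, 9.60 and 10.2 CPM with IL4, a log2 fold change of -2.32 ± 0.28. Insig1 went from 83.1, 48.2 and 124 to 33.7, 35.7 and 32.9 CPM, a log2 fold change of -1.32 ± 0.29, and its groups did not overlap although unstimulated libraries differed widely. Srebf2 went from 128, 180 and 212 to 53.6, 90.7 and 113 CPM (log2 fold change -1.02 ± 0.28, adjusted p = 0.023), a call that was lost without unstimulated 2, unstimulated 3 or IL4 2 (adjusted p between 0.0577 and 0.0828). Srebf1 (-0.36 ± 0.22) and Scap (0.16 ± 0.19) were not called.

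In the fatty acid branch Fads2 fell most, from 25.6, 9.48 and 28.4 CPM to 0, 1.65 and 0.329 CPM, a log2 fold change of -5.05 ± 0.66 (edgeR adjusted p = 0.0003). These IL4 values rest on 0, 5 and 1 reads. Fads1 stood at 160, 86.1 and 113 CPM without and at 64.5, 81.7 and 79.3 CPM with IL4 (log2 fold change -0.68 ± 0.23, adjusted p = 0.061). Scd2 went from 97.1, 28.0 and 59.4 to 23.8, 31.1 and 10.5 CPM, so that the groups overlapped, with a log2 fold change of -1.51 ± 0.44 (adjusted p = 0.033). The Scd2 call was lost without unstimulated 1, unstimulated 3 or IL4 3 (adjusted p between 0.0624 and 0.107). Scd1 was too low to be tested here, with 45, 5 and 12 reads without and 5, 2 and 0 reads with IL4, and the authors' deposited table lists it at an FDR of 0.00344. Acss2 went from 11.7, 6.59 and 12.8 to 3.48, 4.96 and 5.60 CPM (log2 fold change -1.19 ± 0.32), and lost its call in 4 of the 6 fits that left out 1 library, without unstimulated 1 or 3 or IL4 1 or 2 (adjusted p between 0.0545 and 0.0816). Acaca had 22.3, 19.8 and 15.8 CPM without and 25.97, 23.2 and 29.6 CPM with IL4, all higher, but was not called (log2 fold change 0.45 ± 0.21, adjusted p = 0.18).

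Markers of other states moved beside these genes. Of the 7 proliferation markers tested 7 fell with IL4, and their sum went from 352 to 553 CPM without to 107 to 250 CPM with IL4. Of the 7 macrophage markers tested 4 fell and 1 rose, and their sum went from 43300 to 58700 CPM to 24300 to 27000 CPM. Lyz2 carried most of this sum, with means of 42650 CPM without and 15510 CPM with IL4. Gpnmb rose, with means of 2988 and 5842 CPM, and Cd68 had means of 3026 and 3034 CPM. The part of these shifts in the fall of the synthesis genes was not tested. In unstimulated cells Scd2 stood at 28.0 to 97.1 CPM and Fads2 at 9.48 to 28.4 CPM, while mature macrophages of the differentiation table had at most 2.07 and 0.702 CPM. The unstimulated cells had 48 h more in fresh medium, and the tables were normalized apart, so no test was made across them.

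Other genes of the pathways, taken from lists that were chosen with earlier results of these data known, are given by count. Over all genes tested, 49.2% were called in immature macrophages against precursors, 14.9% in mature against immature ones, 54.3% in mature macrophages against precursors and 20.8% with IL4, and the counts are to be read against these shares. Of 8 tested genes of sterol handling that are reported here, 4 rose and 1 fell in immature macrophages against precursors, none was called in mature against immature ones, 4 rose and 1 fell in mature macrophages against precursors, and 1 rose and 1 fell with IL4. Soat1, which esterifies cholesterol for storage, was the gene that rose with IL4, from 112 ± 36.3 to 197 ± 45.1 CPM (log2 fold change 0.81 ± 0.25, edgeR adjusted p = 0.0398). Lbr, a sterol reductase that is also a receptor of the nuclear lamina, fell in immature macrophages against precursors (log2 fold change -1.70 ± 0.24).

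Of 7 genes of the sterol sensor LXR, its partner and its targets, 4 rose in immature macrophages against precursors, 2 fell in mature against immature ones, 3 rose in mature macrophages against precursors, and 2 rose and 1 fell with IL4. Abcg1, which exports cholesterol, had 23.3 ± 6.86, 273 ± 52.3 and 41.9 ± 22.8 CPM in precursors, immature and mature macrophages, and 57.2 ± 36.6 and 321 ± 107 CPM without and with IL4. Its log2 fold change with IL4 was 2.47 ± 0.39 (edgeR adjusted p = 0.00106). Abca1, the other exporter, was not called with IL4 (0.08 ± 0.28). Of 12 genes that use isoprenoids for prenylation or other products, 4 rose and 1 fell in immature macrophages against precursors, none rose and 1 fell in mature against immature ones, 6 rose and 2 fell in mature macrophages against precursors, and none was called with IL4.

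Of 18 other fatty acid genes tested in differentiation, 8 rose and 2 fell in immature macrophages against precursors, 3 rose and 4 fell in mature against immature ones, and 10 rose and 2 fell in mature macrophages against precursors. Me1, the malic enzyme that supplies NADPH, rose by 2.31 ± 0.40 on the log2 scale in immature and was higher by 2.92 ± 0.41 in mature macrophages, both against precursors. Slc25a1, the mitochondrial citrate carrier, had log2 fold changes of 2.06 ± 0.24 and 1.19 ± 0.23 in the same comparisons. Of 14 tested with IL4, 1 was called: Acsl3, an acyl-CoA synthetase, which fell from 29.1 ± 5.09 to 10.2 ± 0.788 CPM (log2 fold change -1.52 ± 0.22).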

How the data were processed

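RNA of 15 libraries (5 groups of 3) was sequenced on Ion Torrent from 1 µg of total RNA, per the labels' protocols. Reads were aligned with HISAT2 2.0.5, edgeR was used with no version given, and the builds GRCm38.p6 and GRCm39.p6 are named, per the submitters' processing notes. Counting program and strand: not given in the sources used here. Deposited by the authors were read counts per gene in 2 tables, log2 RPM of those genes, and lists with adjusted p-values (FDR), which name 27, 25, 10 and 14 of the 33 genes in the order of the comparisons above.

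Counts were analysed with edgeR 4.0.16 in R 4.3.3: filterByExpr (minimum count 10, by group), TMM, glmQLFit and glmQLFTest, 9 differentiation libraries in 1 fit and 6 IL4 libraries in another, with Benjamini-Hochberg adjustment over the 13359 and 8936 genes kept. In simulated counts 200 genes were changed and all others were left unchanged. Log2 changes of 1 were recovered for 21% of changed genes in mature against immature cells and 46% with IL4. For log2 changes of 2 these shares were 71% and 92%. In the data 14.9% and 20.8% of the genes tested were called in these comparisons. With more genes changed the adjustment is less strict, so recovery in the data can be higher. Immature against precursor cells were not simulated. A gene that was not called can still have changed. SE is the absolute log2 fold change divided by the square root of F. A fold against a group at 0 reads uses 3 reads over the group. Depth limits low genes: 1 read is worth more CPM in the shallower IL4 table. Gene positions are those of the deposited tables, exon lengths and shared words those of GENCODE M21.

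The members and lists were chosen with earlier results of these data known. Genes named in a comparison were, per role, the 3 called ones lowest in p that reached 5 CPM, all regulators, Scd1 and Scd2, and called genes against their role's majority. Others were named after their values were seen. Some genes of the sterol handling list are not reported here, and its counts leave them out. Alternatives were RLE scaling, DESeq2 1.42.0, no filter or 1 CPM in 3 libraries, limma 3.58.1 on the deposited log2 RPM, the mouse number as a block, the 6 compared libraries alone, an adjusted p under 0.001 and leaving out each library. Counting Msmo1 by identifier and leaving out all libraries of mouse number 1 were added after seeing the data. Deviations of same-numbered libraries correlated between 0.168 and 0.596 in the IL4 table and between -0.152 and 0.241 in differentiation. In both, the mouse numbers come from the titles, and it is not known whether equal numbers mean the same animal.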

Additional observations from a re-analysis of the deposited data

How the results depend on the processing

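Counts of genes called in immature against precursor, mature against immature, mature against precursor and IL4 against unstimulated cells were 27, 29, 12 and 13. At an adjusted p under 0.001 they were 15, 11, 3 and 2, by construction of the stricter threshold. Leaving out 1 library gave 22 to 27, 22 to 30, 9 to 14 and 8 to 16, with the 8 without unstimulated library 3; the cause was not tested. All other alternatives stayed within 1.5 times. The replicate block gave 26, 27, 13 and 18. In both tables the pairing rests on the mouse number alone, and not every library correlated best with its own number. These block counts are a hint from the data only. Without mouse number 1 the counts were 27, 29, 15 and 11, and with Msmo1 by identifier the last was 14. Of 1737 single-gene values 1610 kept direction and side of the threshold, 71 lost the call, 29 gained it and 27 changed sign, none of them called before or after.

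The sign changes were near 0. In immature against precursor cells Srebf2 went to -0.051 under limma, Acaca to -0.024 under RLE and DESeq2, -0.0060 with the 1 CPM filter, -0.080 under limma, -0.055 with the block and between -0.12 and 0.24 without 1 library, and Elovl6 to 0.32 without mouse number 1 and between -0.62 and 0.29 without 1 library. In mature against precursor cells, without mouse number 1, Acat2 went to -2.37e-05, Sc5d to 0.029, Dhcr7 to 0.049 and Acly to -0.020 (Acly -0.13 under limma). Srebf1 went to -0.019 under RLE and DESeq2 and -0.023 under limma. Without 1 library Srebf1 lay between -0.11 and 0.17, Acat2 between -0.18 and 0.22 and Nsdhl between -0.12 and 0.23. Ggps1 with IL4 lay between -0.50 and 0.027 without 1 library. The cause was not tested. The median of all genes tested in immature against precursor cells was -0.07, -0.26 without a filter and 0.10 under limma. Depth limits Scd1 and Elovl6 in the IL4 table, where Elovl6 had 9 reads without and 1 with IL4 over 3 libraries each, a ratio of 8.2 (exact 95% interval 1.14 to 360, for counting error of pooled reads only, without the spread between libraries).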
